A study of Mus musculus with 6 samples.

Results

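The 9 genes described here carry the Hedgehog signal from the cell surface to the nucleus, and their transcripts were read in laser-captured mesenchyme of the mouse incisor. They are the receptors and coreceptors Ptch1, Smo, Boc and Gas1, the secreted inhibitor Hhip, the GLI transcription factors Gli1, Gli2 and Gli3, and the GLI inhibitor Sufu. They were chosen by gene symbol from a table of 23718 genes, and all 9 were listed there and passed the filter for testing. RNA sequencing covered 6 libraries from mice 1 month old, whose strain the labels give as C57BL/6 while the methods of the study speak of mice of mixed background. The 3 MSC libraries hold mesenchymal stem cells captured from Gli1-CreER;tdT mice, and the 3 TAC libraries hold transit amplifying cells, the dividing progeny of the stem cells, captured from Axin2-CreER;tdT mice. In both lines a Cre recombinase that needs tamoxifen switches on a red reporter in cells that use the driver gene, and by the methods of the study tissue was taken 1 day after tamoxifen.

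The driver of the MSC mice is itself a Hedgehog target, and in these widely used lines CreER sits in the Gli1 and Axin2 genes themselves. The MSC mice thus carry a Gli1 gene altered by the driver, and the TAC mice an altered Axin2 gene. The part of these alleles in the Gli1 values was not tested. The methods name 3 mice for each group, but the labels do not tie a library to a mouse, so the spread given below is that between libraries.

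Hedgehog ligands bind PTCH1, which otherwise holds the membrane protein SMO inactive in the primary cilium. BOC, GAS1 and CDON help ligand reach PTCH1, whereas HHIP traps it. Once SMO is active, GLI2 and GLI3 are no longer held by SUFU or cut into repressors, and Gli1, Ptch1 and Hhip are transcribed as targets that report the signal and, for Ptch1 and Hhip, dampen it. In the incisor, Sonic hedgehog from epithelium and nerve is known to act on the mesenchyme at the growing end, and Gli1 marks its stem cells.

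Values are normalized read numbers, scaled for each library so that the third quartile of the genes was between 15.59 and 15.62. Gene length was not divided out. Wherever 3 values are listed, they stand in the order of replicates 1, 2 and 3. By estimated reads, which also follow the depth of a library, the lowest of the 9 genes was Boc in TAC replicate 1, at 239. The highest was Gli1 in TAC replicate 3, at 104432, so none was near the floor of detection. Whole libraries held from 20203159 to 108156380 estimated reads. In both groups replicate 3 stood apart. Mitochondrial ribosomal RNA took 0.236% and 0.112% of its reads in MSC and TAC, against 8.28% to 9.07% in replicates 1 and 2, and it had 43.1% and 28.3% of genes without a read, against 6.89% to 8.36%. For each of the 9 genes the comparison is therefore also given within replicates 1 and 2 and within replicate 3, which has 1 library for each group and allows no test.

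The labels were checked first. Mki67, which marks dividing cells, was 137, 130 and 41.5 in MSC, against 593, 630 and 122 in TAC. TAC was higher in 3 of 3 same-numbered pairs, as for 24.6% of all genes tested, although TAC replicate 3 lay below MSC replicates 1 and 2. In log2 units TAC exceeded MSC by 1.97 (SE 0.75, adjusted p 0.361 in limma, and 0.0442 with the replicate number as a block). Axin2 was 58.3, 48.0 and 12.01 in MSC and 56.8, 63.9 and 34.1 in TAC, and its groups overlapped. Of 7 markers of dental mesenchyme, all were read in every library, with a summed level of 926 to 992 in MSC and 548 to 774 in TAC. Products of mature tooth cells exceeded that sum in most libraries. The 4 odontoblast markers summed to 4998, 4866 and 512 in MSC and 4825, 4786 and 3293 in TAC, and the 5 enamel matrix markers to 3686, 3628 and 284 in MSC and 3276, 3343 and 2139 in TAC. MSC replicate 3 was thus far below the other 5 libraries for both sums. Dspp made up most of the odontoblast sum, at 4909, 4763 and 476 in MSC and 4410, 4370 and 3095 in TAC. Smpd3 of that list was 55.2, 63.9 and 35.5 in MSC and 383, 385 and 169 in TAC, without overlap, as for 24.5% of all genes tested. In replicates 1 and 2 Dmp1 too was higher in TAC, while Dspp and Ibsp were lower. The part of mature tooth cells in the values of the 9 genes was not tested.

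Boc, a coreceptor that presents ligand to PTCH1, separated the groups most among the 9 genes. Boc read 20.1, 20.1 and 32.1 in MSC, against 5.25, 6.91 and 4.58 in TAC. Every MSC library thus lay well above every TAC library, and the groups did not overlap. MSC averaged 24.1 ± 6.94 and TAC 5.58 ± 1.195 (SD, n = 3 each), so the MSC mean was 4.32 times the TAC mean. The log2 fold change, TAC minus MSC on the log2(value + 1) scale, was -1.91 (SE 0.39, 95% confidence interval -2.82 to -1.01), with a limma unadjusted p of 0.00145 and an adjusted p of 0.114. Boc therefore did not pass the adjusted threshold of 0.05, which 0.422% of the 15391 genes tested passed, 0.383% with MSC higher. It was the 1 member with an unadjusted p under 0.05, where 11.9% of all genes tested had one and 6.43% had one with MSC higher, and the 1 member without overlap, where the groups did not overlap for 24.5% of all genes. Boc was lower in TAC within both kinds of library, with a log2 fold change of -1.59 in replicates 1 and 2 and -2.57 in replicate 3. Its log2 fold change stayed between -2.35 and -1.59 over 18 alternatives, and its adjusted p was under 0.05 in 2 of them, replicates 1 and 2 only (0.000125), under which 44.2% of all genes passed, and library kind, replicate 3 against the others, as a batch term (0.0154), under which 11.8% passed. With the replicate block, under which 1.49% of all genes passed, its adjusted p was 0.0795.

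Summed levels of vessel cell markers were higher in MSC. The summed level of 6 smooth muscle and pericyte markers was 748 to 1492 in MSC and 92.9 to 110 in TAC, and that of 5 endothelial markers was 129 to 195 in MSC and 62.8 to 84.1 in TAC, with every marker read in every library. Past the adjusted limma threshold were 4 of the 6 smooth muscle and pericyte markers and 0 of the 5 endothelial markers, beside 0.422% of all genes tested. Of the endothelial markers 2 were under 0.05 unadjusted (11.9% of all genes), and Kdr was higher in TAC in replicates 1 and 2. The 4 Schwann cell markers summed to 19.1 to 43.2 in MSC and 5.87 to 19.2 in TAC, with Sox10 at 0 reads in TAC replicate 3. The part of these cells in the Boc values was not tested. In captured tissue, fewer cells that express a gene and less RNA in each cell cannot be told apart.

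**Figure D1:**
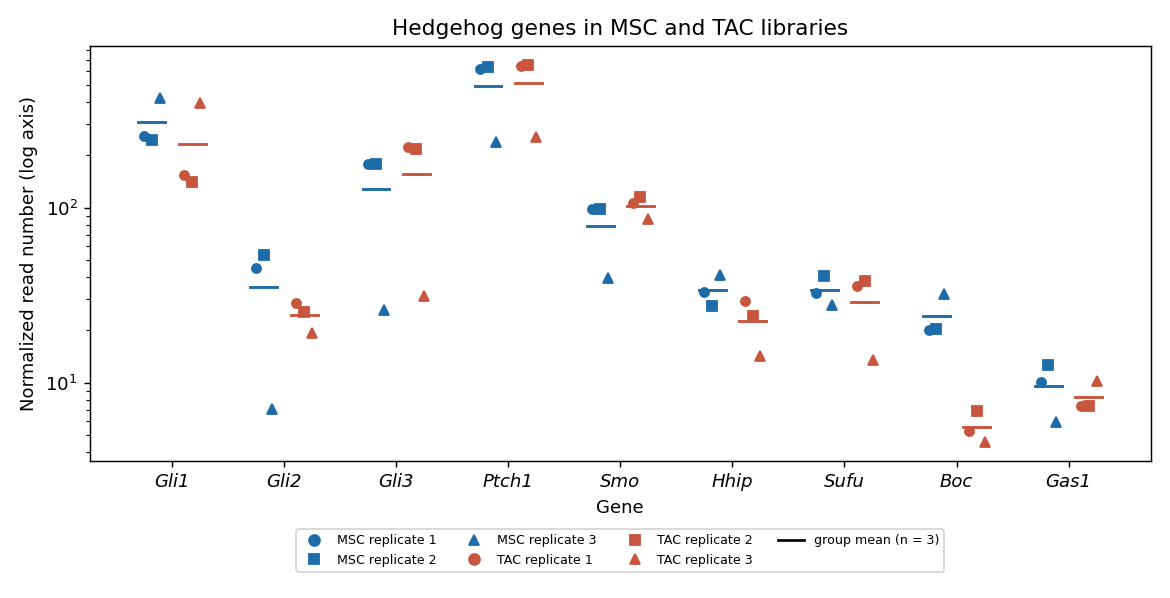
Normalized read number (log axis) of the 9 Hedgehog genes in each of the 6 libraries, with MSC in blue, TAC in red, a symbol for each replicate number and a bar for the group mean (n = 3). Boc is the gene whose MSC values (20.1 to 32.1) all lie above its TAC values (4.58 to 6.91), and replicate 3 (triangles) lies apart from replicates 1 and 2 for Gli1, Gli3 and Ptch1 in both groups.

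Gas1, a coreceptor anchored to the membrane by a lipid, did not separate the groups. It was 10.1, 12.6 and 5.98 in MSC, against 7.31, 7.36 and 10.2 in TAC, with MSC replicate 3 lowest of all. Its fitted log2 fold change was -0.15 (SE 0.44, 95% confidence interval -1.18 to 0.89, limma adjusted p 0.944), and it was -0.56 within replicates 1 and 2 and 0.68 within replicate 3. Set against Boc in the same library, a comparison that does not depend on the scaling of the library, Gas1 was 0.503, 0.627 and 0.186 times Boc in MSC and 1.39, 1.07 and 2.23 times Boc in TAC. The read number of Gas1 was thus below that of Boc in each MSC library and above it in each TAC library. The log2 ratio was tested with 1 added to each value, so that, unlike the ratios listed, it depends in part on the scaling. It differed by 1.77 between the groups (exact permutation test, two-sided p 0.1, the smallest that 3 against 3 libraries can give, and 0.667 adjusted over the 8 ratios compared). Cdon, the third coreceptor of this kind, was 7.35, 6.81 and 0.692 in MSC and 2.87, 3.09 and 0.709 in TAC. In replicates 1 and 2 MSC was higher, while in replicate 3 both groups were below 1, and over all libraries the log2 fold change was -0.68 (SE 0.79, adjusted p 0.804).

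Ptch1, the receptor and a feedback target, had the smallest log2 fold change of the 9 genes over all libraries, although Sufu was closer to 0 within replicates 1 and 2 and Gli1 within replicate 3. It was 617, 637 and 238 in MSC, against 645, 655 and 254 in TAC. Every TAC value was above the MSC value with the same number, as for 24.6% of all genes tested, but by little. Replicate 3 was far below replicates 1 and 2 in both groups. MSC averaged 497 ± 225 and TAC 518 ± 228 (SD, n = 3 each). The log2 fold change was 0.07 (SE 0.58, 95% confidence interval -1.30 to 1.43, adjusted p 0.983), with 0.051 within replicates 1 and 2 and 0.097 within replicate 3. With the replicate block, which takes out the shift of replicate 3, the SE was 0.092 and the unadjusted p 0.502.

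Smo, the membrane protein that PTCH1 holds inactive, was 98.04, 98.6 and 39.8 in MSC, against 106, 115 and 85.9 in TAC. TAC was higher in 3 of 3 pairs, as for 24.6% of all genes tested, and MSC replicate 3 lay far below the other libraries. The log2 fold change was 0.48 (SE 0.40, 95% confidence interval -0.47 to 1.42, adjusted p 0.706), made up of 0.17 within replicates 1 and 2 and 1.09 within replicate 3. Without MSC replicate 3 it was 0.050. Ptch1 was 6.29, 6.46 and 5.97 times Smo in the MSC libraries, a narrow range although both genes were far lower in replicate 3, and 6.07, 5.67 and 2.96 times Smo in TAC. That log2 ratio differed by -0.41 (exact permutation p 0.2, 0.667 adjusted over the 8 ratios).

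Hhip, the membrane-bound and secreted trap for ligand, is like Ptch1 a feedback target. It was 33.1, 27.3 and 41.0 in MSC, against 29.3, 23.9 and 14.2 in TAC, with TAC lower in 3 of 3 pairs, as for 26.4% of all genes tested. The values of replicates 1 and 2 overlapped between the groups, and the largest gap was between the replicate 3 libraries. On the log2 scale TAC minus MSC was -0.61 (SE 0.36, 95% confidence interval -1.45 to 0.23, adjusted p 0.571), with -0.18 within replicates 1 and 2 and -1.46 within replicate 3. Relative to Ptch1 in the same library, Hhip was 0.0537, 0.0428 and 0.172 in MSC and 0.0455, 0.0365 and 0.0559 in TAC.

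Gli1, the GLI factor that acts as an activator and rises with the signal, was 256, 245 and 422 in MSC, against 153, 141 and 396 in TAC. TAC was lower in 3 of 3 pairs, as it was for 26.4% of all genes tested. Replicates 1 and 2 did not overlap between the groups, but TAC replicate 3 lay above MSC replicates 1 and 2. The log2 fold change was -0.54 (SE 0.48, 95% confidence interval -1.67 to 0.59), with a limma unadjusted p of 0.297 and an adjusted p of 0.718, and it was -0.77 within replicates 1 and 2 and -0.09 within replicate 3. Without 1 library it ran from -0.28 (without TAC replicate 2) to -1.02 (without TAC replicate 3, unadjusted p 0.0239, where 12.5% of all genes were under 0.05). The replicate block left the size as it was, lowered the SE to 0.18 and gave an unadjusted p of 0.0320, with an adjusted p of 0.203. Gli1 and Boc were then the 2 members with an unadjusted p under 0.05, as 20.4% of all genes had.

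Gli2, the main activator of the pathway in many tissues, was 44.9, 53.5 and 7.04 in MSC, against 28.5, 25.3 and 19.3 in TAC. MSC held both its highest and its lowest library. The log2 fold change of -0.12 (SE 0.71, 95% confidence interval -1.79 to 1.55, adjusted p 0.976) joined -0.85 within replicates 1 and 2 with 1.33 within replicate 3. Without MSC replicate 3 the log2 fold change of Gli2 was -0.998, and the unadjusted p went under 0.05, making 2 members with Boc in a fit where 20.2% of all genes did so.

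Gli3, which yields the main repressor of the pathway, was 178, 179 and 25.8 in MSC, against 222, 216 and 31.1 in TAC. TAC was higher in 3 of 3 pairs, a pattern held by 24.6% of all genes, with a log2 fold change of 0.30 within replicates 1 and 2 and 0.26 within replicate 3. Over all libraries it was 0.28 (SE 0.99, 95% confidence interval -2.04 to 2.61, adjusted p 0.956). The replicate block brought the SE to 0.12, with an unadjusted p of 0.0676 and an adjusted p of 0.276. Sufu, which binds GLI proteins in the cytoplasm, was 32.7, 40.7 and 27.9 in MSC and 35.8, 37.9 and 13.4 in TAC. The log2 fold change came to -0.32 (SE 0.44, 95% confidence interval -1.36 to 0.71, adjusted p 0.843), with 0.014 within replicates 1 and 2 and -1.001 within replicate 3.

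**Figure D2:**
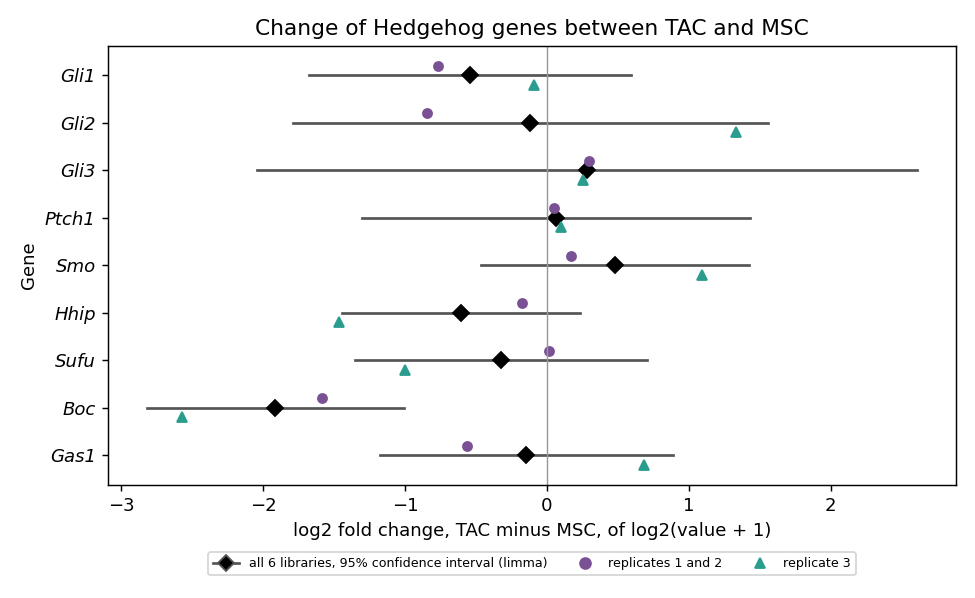
Log2 fold change, TAC minus MSC, of the 9 genes on the log2(value + 1) scale, with diamonds and lines for the limma estimate and 95% confidence interval over all 6 libraries, circles for replicates 1 and 2 and triangles for replicate 3. The interval of Boc (-2.82 to -1.01) lies below 0 and those of the other 8 genes include 0, and Gli2, Sufu and Gas1 have their circle and triangle on opposite sides of 0.

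Across the 9 genes, 6 log2 fold changes were below 0 and 3 above, with a median of -0.15 against 0.026 over all genes tested. By the same-numbered pairs the median was -0.17, -0.19 and 0.097 in replicates 1, 2 and 3. Of the 9 genes 0 had an adjusted p under 0.05 in limma (0.422% of all genes) and 1 an unadjusted p under 0.05 (11.9%), and with the block 0 (1.49%) and 2 (20.4%). In replicates 1 and 2 only, 6 passed the adjusted threshold (Gli1, Gli2, Gli3, Smo, Boc and Gas1), in a fit that leaned on 2 closely similar libraries for each group and called 44.2% of all genes.

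The gap between library kinds was larger than the gap between groups for several members. Gli3 in replicate 3 was lower by 2.74 on the log2 scale in MSC and by 2.78 in TAC than the mean of replicates 1 and 2, or 6.68-fold and 6.86-fold lower. Ptch1 was 2.63-fold lower in MSC and 2.55-fold lower in TAC. These were the 2 members at least 1 log2 unit lower in both groups, as were 19.6% of all genes. Of the members 0 were at least 1 unit higher in both, as 6.13% of all genes were. Gli2 was 6.23-fold lower in MSC replicate 3 but 1.37-fold lower in TAC replicate 3, and Smo 2.43-fold and 1.29-fold lower. In all, 4 members were at least 1 unit lower in MSC replicate 3, where 41.1% of all genes were, and 3 in TAC replicate 3, where 27.0% were. Gli1 was higher in replicate 3, by 0.75 in MSC and 1.43 in TAC on the log2 scale. The genes that most resembled Ptch1 over the 6 libraries, by the root mean square distance of log2 profiles centred on each gene's mean, were Qrich1 (0.0347), Wnk1 (0.0400) and Fto (0.0430), against a median of 0.703 over 3266 genes. Those closest to Gli1 were Ctsb (0.0953), Clk1 (0.132) and Phka1 (0.139), against a median of 0.875. For both genes the shared profile is mainly the step between replicate 3 and the others.

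**Figure D3:**
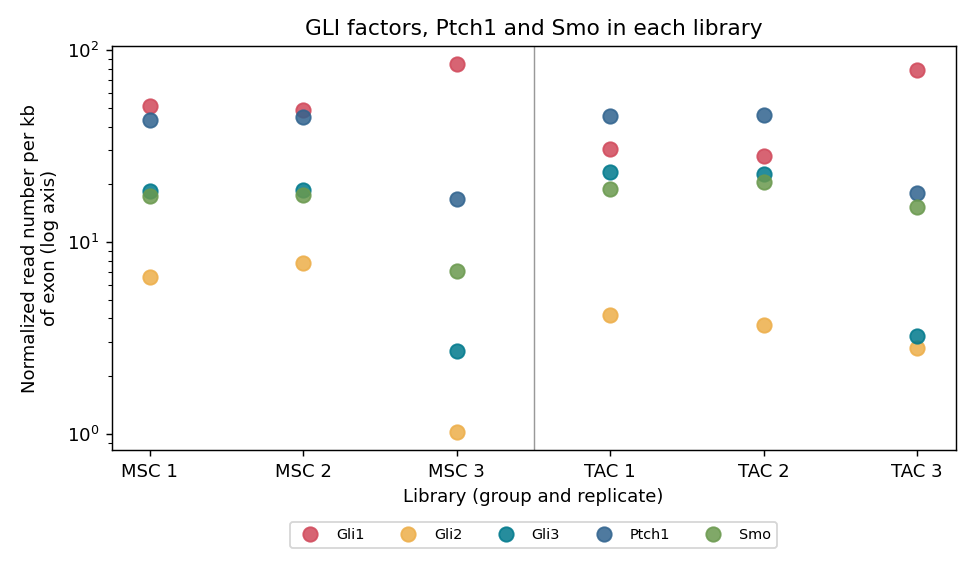
Normalized read number per kilobase of annotated exon, with every exon of a gene counted once (log axis), of Gli1, Gli2, Gli3, Ptch1 and Smo in each library. Gli1 lies above Ptch1 in the 3 MSC libraries and in TAC replicate 3 and below it in TAC replicates 1 and 2 (by longest transcript it is also below in MSC replicate 2), and Gli3 is 2.70 and 3.24 in replicate 3 of MSC and TAC against 18.6 to 23.2 in the other libraries.

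Levels of different genes were compared per kilobase of annotated exon, counting every exon of a gene once, and the order depends on that choice of length. In MSC Gli1 was highest, at 61.6 ± 19.8 per kilobase (SD, n = 3), then Ptch1, at 35.1 ± 15.9, and their values did not overlap. Smo and Gli3 followed at 14.02 ± 6.01 and 13.3 ± 9.18 and overlapped each other, with Smo above Gli3 in 1 of 3 libraries. Boc, Gli2, Sufu, Hhip and Gas1 came last, between 5.42 and 3.23, each overlapping its neighbour in that order. In TAC the order was Gli1 (46.03 ± 28.8), Ptch1 (36.5 ± 16.1), Smo (18.2 ± 2.69) and Gli3 (16.3 ± 11.3), each overlapping the next and Smo above Gli3 in 1 of 3 libraries, and then Sufu, Gli2, Gas1 and Hhip, between 3.78 and 2.48. Boc, which was above Gli2 in 1 of 3 MSC libraries, was last in 3 of 3 TAC libraries at 1.25 ± 0.268, and each of its values lay below every value of Hhip, the next gene above it. Gli1 was above Ptch1 in 3 of 3 MSC libraries and in 1 of 3 TAC libraries. With the length of the longest transcript instead, Gli1 was 60.4 and Ptch1 61.4 in MSC replicate 2, so Gli1 was above Ptch1 in 2 of 3 MSC libraries and the values overlapped. By that length Smo was above Gli3 in 3 of 3 libraries of both groups, and Sufu, with means of 7.46 in MSC and 6.42 in TAC, came next after them by mean, while Boc was still last in 3 of 3 TAC libraries. As a ratio of read numbers within a library, Gli1 was 0.415, 0.384 and 1.77 times Ptch1 in MSC and 0.237, 0.215 and 1.56 times Ptch1 in TAC, lower in TAC in 3 of 3 pairs. It was 1.44, 1.37 and 16.3 times Gli3 in MSC and 0.688, 0.653 and 12.7 times Gli3 in TAC, again lower in 3 of 3 pairs. These log2 ratios differed by -0.61 and -0.82, less than the step between library kinds (exact permutation p 0.5 for each, 0.667 adjusted over the 8 ratios). Gli2 was 0.252, 0.300 and 0.272 times Gli3 in MSC, and 0.128, 0.117 and 0.620 times Gli3 in TAC.

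Of the ligands, Shh was 1.52, 3.62 and 0.00666 in MSC, against 8.07, 8.29 and 1.92 in TAC, which are 56, 124 and 0 estimated reads and 367, 345 and 506. MSC replicate 3 thus had no read. TAC was higher in 3 of 3 pairs, as for 24.6% of all genes tested, but TAC replicate 3 lay within the MSC range. The log2 fold change was 1.46 (SE 0.78, adjusted p 0.528, unadjusted p 0.0144 and adjusted p 0.138 with the replicate block). The size was 2.58 with a pseudocount of 0.1 and 5.18 with voom on estimated reads, and ran from 0.88 (without MSC replicate 3) to 2.01 (without TAC replicate 3). The adjusted p of Shh was 0.00503 in replicates 1 and 2 only and 0.0498 with library kind as a batch term. The 6 listed markers of dental epithelium, a source of Shh, summed to 30.2 to 31.9 in MSC and 50.5 to 91.3 in TAC. All 6 had a log2 fold change above 0, and 4 were without overlap, as were 24.5% of all genes tested. Past the adjusted threshold were 0 of 6 (0.422% of all genes). Unadjusted, 1 was under 0.05 in limma (11.9% of all genes) and 3 with the replicate block (20.4%). The enamel matrix sums given above were lower in TAC in replicates 1 and 2 and higher in TAC in replicate 3. Epcam, Cdh1 and Trp63 had 0 reads in MSC replicate 3. The part of epithelial RNA in the Shh values was not tested. Dhh, the ligand made by Schwann cells, had 62, 44 and 0 estimated reads in MSC and 22, 2 and 0 in TAC, below the mean level needed for testing, and Ihh is not analysed here.

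The rest of the pathway was examined with 59 further genes, of which 57 were listed and 55 tested. Of these 1 was past the adjusted threshold, higher in MSC, beside 0.422% of all genes tested, 0.383% with MSC higher. An unadjusted p under 0.05 was found for 9, 5 higher in MSC and 4 higher in TAC, a share to be read against 11.9% of all genes. Of the 9, 8 came from the 12 reported target genes. None of the 12 genes of GLI processing and turnover or of the 14 of primary cilium transport had an unadjusted limma p under 0.05, and with the replicate block 2 and 4 of them did, beside 20.4% of all genes.

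Of the 12 target genes, beside 0.422% of all genes tested, 1 passed the adjusted threshold. This was Foxc2, a forkhead factor of vessel and mesenchyme development, at 29.8, 27.7 and 22.4 in MSC, against 1.69, 2.71 and 2.92 in TAC, an MSC mean 10.9 times that of TAC. TAC differed from MSC by a log2 fold change of -3.02 (SE 0.40, limma adjusted p 0.0390, and 0.0459 with the block), so that Foxc2 fell in TAC. Without 1 library its log2 fold change ran from -3.13 to -2.85. The adjusted p was then above 0.05 except without MSC replicate 3 (0.0353), but without replicate 1 or 2 of either group 0 of all genes tested passed, and without TAC replicate 3 0.234% did (0.0641 for Foxc2). Over all 18 alternatives the adjusted p of Foxc2 was under 0.05 in 8. Foxc1 was 17.1, 16.6 and 23.5 in MSC and 3.31, 3.60 and 0.823 in TAC (log2 fold change -2.59, SE 0.52, adjusted p 0.114). Its size was -3.06 with a pseudocount of 0.1 and -4.31 with voom on estimated reads. The adjusted p of Foxc1 was under 0.05 in 3 of 18 alternatives. These were quantile normalization (0.0422, where 0.741% of all genes passed), library kind as a batch term (0.0187, 11.8%) and replicates 1 and 2 only (4.37e-05, 44.2%). Foxf2 was 83.4, 76.01 and 79.4 in MSC and 28.1, 26.1 and 16.9 in TAC (-1.74, SE 0.29, adjusted p 0.0764, and 0.0477 with the block). Foxc2, Foxc1 and Foxf2 had all MSC values above all TAC values, as did 12.2% of all genes tested. They had the same direction within replicates 1 and 2 and within replicate 3. The smooth muscle and pericyte markers given beside Boc separate the groups in the same direction, without overlap for 6 of 6 (12.2% of all genes). Their part in the values of Foxc2, Foxc1 and Foxf2 was not tested.

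Foxd1, another forkhead factor, was 16.4, 13.1 and 10.1 in MSC and 32.7, 29.9 and 29.1 in TAC (log2 fold change 1.18, SE 0.31, adjusted p 0.188), without overlap between the groups. Osr2, an odd-skipped factor of craniofacial mesenchyme, was 67.7, 68.4 and 69.2 in MSC and 42.7, 47.1 and 37.2 in TAC (-0.69, SE 0.24, adjusted p 0.329).

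Mycn, a growth-promoting MYC factor, was 64.5, 71.1 and 12.8 in MSC, against 196, 208 and 109 in TAC (log2 fold change 2.04, SE 0.65, adjusted p 0.281). Without 1 library the log2 fold change of Mycn ran from 1.27 to 2.46. Ccnd1, cyclin D1, was 65.4, 65.6 and 60.5 in MSC and 102, 102 and 124 in TAC (0.76, SE 0.24, adjusted p 0.279). Ccnd2, cyclin D2, lay the other way, at 205, 206 and 135 in MSC and 70.7, 70.3 and 46.1 in TAC (-1.53, SE 0.31, adjusted p 0.119, and 0.0327 with the block). For each of these 3 genes the groups did not overlap, as for 24.5% of all genes tested. The 6 proliferation markers summed to 111 to 203 in MSC and 283 to 980 in TAC. Past the adjusted threshold was 1 of 6 (0.422% of all genes), 4 of 6 were without overlap (24.5%), and Ccna2 was lower in TAC within replicate 3. The part of proliferation in these values was not tested. Outside the targets, the 1 gene with an unadjusted p under 0.05 was Arrb1, beta-arrestin 1, an adaptor of activated SMO and other membrane receptors. It was 80.3, 80.1 and 50.5 in MSC and 229, 222 and 184 in TAC (1.603, SE 0.30, adjusted p 0.0935, and 0.0432 with the block).

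**Figure D4:**
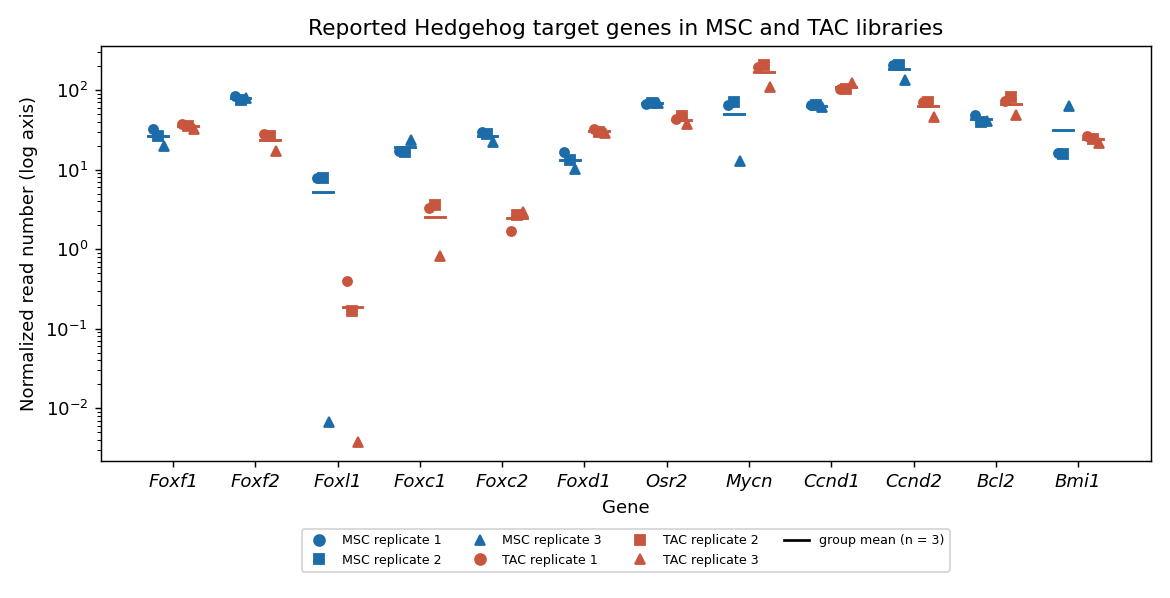
Normalized read number (log axis) of the 12 reported Hedgehog target genes in each library, with MSC in blue, TAC in red, a symbol for each replicate number and a bar for the group mean (n = 3). The groups do not overlap for 8 of the 12 genes, against 24.5% of all genes tested, and of the 8 Foxf2, Foxc1, Foxc2, Osr2 and Ccnd2 are higher in MSC and Foxd1, Mycn and Ccnd1 higher in TAC. Foxl1 had no read in replicate 3 of either group.

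The 9 genes lie, on mm10, at chromosome 10, 127329882 to 127341974 (Gli1), chromosome 1, 118834132 to 119053619 (Gli2), chromosome 13, 15463235 to 15730026 (Gli3), chromosome 13, 63508328 to 63573598 (Ptch1), chromosome 6, 29735503 to 29761365 (Smo), chromosome 8, 79965851 to 80058006 (Hhip), chromosome 19, 46396896 to 46488804 (Sufu), chromosome 16, 44485049 to 44558897 (Boc) and chromosome 13, 60174405 to 60177365 (Gas1). Gli3, Smo and Sufu are on the plus strand and the others on the minus strand. Gli1 overlaps the protein-coding gene Arhgap9 on the other strand. The other members overlap no protein-coding gene, but all except Sufu overlap a noncoding gene, a predicted gene or a pseudogene. Use of strand in the counting was not stated, so reads of an overlapping gene can be part of a value.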

How the data were processed

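Laser-captured incisor mesenchyme of 3 MSC and 3 TAC samples was sequenced by the authors as single-end reads, which they aligned to mm10 with TopHat2 2.0.8. The submitters' processing notes also name CASAVA 1.8.2 and Partek. The study states RPKM, but the deposited values behave as a signal scaled for each library: in each library many genes of any length share the lowest value. To estimate reads, each value was divided by its library's lowest value and 1 was subtracted. Of those up to 20, between 63.3% and 73.9% were within 0.02 of a whole number, so no count model was used. The counting tool and its strand setting are not given in the sources used here.

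The planned test assumed normalized values and was kept. Values were taken as log2(value + 1), and limma 3.58.1 in R 4.3.3 was fitted, with an empirical Bayes trend, to 15391 genes whose mean value reached 1. TAC was compared with MSC, two-sided, with Benjamini-Hochberg adjustment over all genes tested and a threshold of 0.05. The fit was also run on simulated data with independent noise in each library and no shared shift of replicate 3. That run does not cover the main feature of these libraries, and no outcome of it is used here. Within-library log2 ratios, with 1 added to each value, were compared by exact permutation tests, adjusted over 8 ratios. Exon lengths and overlaps came from GENCODE M21, where all 9 members had the same start and end as in the table.

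The numbers 1 to 3 in the labels were checked as pairs by correlating deviations from the group means across genes. The same-numbered correlations were 0.477, 0.465 and 0.517, all above 0.1, but MSC replicate 1 with TAC replicate 2 gave 0.462, so the shared part is replicate 3 against the others. Members and lists were chosen with earlier results of these data known. The genes named were the 9 members, further pathway genes with an unadjusted p under 0.05, the ligands, Cdon, Axin2, Mki67 and the 3 genes nearest in profile to Gli1 and to Ptch1 among those with a mean of at least 30, without predicted genes and clone names. Another gene this rule names is not reported here. Foxl1 was named after its values were seen. Ift25 was read as Hspb11. Alternatives with library kind as a batch term, or with replicates 1 and 2 averaged, were chosen after seeing the data.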

Additional observations from a re-analysis of the deposited data

How the results depend on the processing

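Replicate 3 set the limits of most results. Without replicate 1 or 2 of either group 0 of all genes tested passed the adjusted threshold, so counts of 0 there say nothing about the genes counted. The count of the 9 genes past the adjusted threshold was 0 in the reported fit and moved to 6 in replicates 1 and 2 only (44.2% of all genes) and to 1 with library kind as a batch term (11.8%). The unadjusted count moved from 1 to 2 with the replicate block (20.4% of all genes), 6 in replicates 1 and 2 only (51.9%) and 3 with library kind as a batch term (29.6%), and ran from 1 to 2 without 1 library, with 2 without MSC replicate 3 (Gli2 and Boc, 20.2% of all genes) and without TAC replicate 3 (Gli1 and Boc, 12.5%). The adjusted count of the other pathway genes moved from 1 to 0 with a pseudocount of 0.1, no filter, a mean of at least 10, voom on estimated reads or replicates 1 and 2 averaged, to 2 with quantile normalization (0.741% of all genes), 4 with the replicate block (1.49%), 38 in replicates 1 and 2 only (44.2%) and 15 with library kind as a batch term (11.8%). It ran from 0 to 4 without 1 library, with 4 without MSC replicate 3 (1.9% of all genes). Their unadjusted count moved from 9 to 14 with voom (23.2% of all genes), 21 with the replicate block (20.4%), 43 in replicates 1 and 2 only (51.9%) and 25 with library kind as a batch term (29.6%), and ran from 7 to 17 without 1 library, with 17 without MSC replicate 3 (20.2%).

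The median log2 fold change of the 9 genes moved from -0.15 to 0.078 with voom and 0.061 with replicates 1 and 2 averaged, and ran from -0.45 to 0.064 without 1 library. Directions turned for Gli2 with voom (0.16) and with replicates 1 and 2 averaged (0.24), for Gas1 with the same settings (0.29 and 0.061) and for Sufu in replicates 1 and 2 only (0.014). Without 1 library Gli2 ran from -0.998 to 0.38, Gli3 from -0.63 to 1.21, Ptch1 from -0.40 to 0.52, Sufu from -0.58 to 0.14, Gas1 from -0.42 to 0.064 and Axin2 from -0.084 to 1.01. The genes closest to Ptch1 turned likewise, with ranges of -0.38 to 0.50 for Qrich1, -0.36 to 0.52 for Wnk1 and -0.38 to 0.52 for Fto. Among the log2 ratios, Gli1/Gli2 turned in replicates 1 and 2 only (0.078). Without 1 library Gli1/Gli2 ran from -1.07 to 0.71, Gli1/Gli3 from -2.23 to 0.34, Gli2/Gli3 from -1.17 to 0.016, Gli1/Ptch1 from -1.53 to 0.11 and Sufu/Gli3 from -1.08 to 0.18. The cause was not tested. Among the genes named, the replicate block changed the adjusted call of Arrb1, Foxf2, Ccnd2 and Mki67 and of no other.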
